A study of Mus musculus with 6 samples.

Results

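The genes described here are 8 enzymes and receptors of purinergic signaling, measured by bulk RNA-seq in regulatory T cells (Tregs) sorted from neonatal skin and from skin-draining lymph nodes (SDLNs). They were chosen by name from the 49315 genes of the count table, through the Ensembl identifiers of the annotation GENCODE M21, by a rule that uses no measured value. Entpd1, Nt5e, Ada and Adk encode enzymes, and Adora2a, P2rx4, P2rx7 and P2ry10 encode receptors. Tregs are the Foxp3-expressing CD4+ T cells that hold immune responses in check. Both groups came from 9-day-old Foxp3-GFP mice, whose reporter marks cells that express Foxp3, and neither was treated. Per the study's methods, cells of 3 biological replicates were pooled into each sample, CD45+ cells were enriched on beads, and live CD45+ CD4+ Foxp3-EGFP+ cells were sorted into TRIzol. Each group has 3 samples in the labels, which place all 6 in 1 batch. Their tissue field reads skin for the lymph node samples too, so the groups follow the sample titles. The methods count 3 samples in total, so skin and SDLN libraries may share pools of mice. No label says which animals a library came from, so p-values measure the spread between these libraries only.

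ATP released by stressed or dying cells acts as a danger signal through P2X and P2Y receptors. On the surface of Tregs, CD39 (Entpd1) removes phosphates from ATP and ADP to leave AMP, and CD73 (Nt5e) converts AMP to adenosine. Adenosine acts through receptors such as that encoded by Adora2a, which raises cyclic AMP in T cells and dampens their activation. Inside cells, adenosine deaminase (Ada) turns adenosine into inosine, and adenosine kinase (Adk) turns it back into AMP. The P2X4 and P2X7 channels open when they bind ATP, and P2X7 is known for driving the death of T cells exposed to extracellular nucleotides. P2ry10 is named with the P2Y receptors, although its known ligand is the lipid lysophosphatidylserine.

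Nt5e, P2rx7 and Ada were read in every SDLN library and at or near 0 in skin Tregs, and they were the 3 genes of the 8 that passed the test, all lower in skin, as 45.3% of all genes tested were. They entered the test through their SDLN counts alone, so lower in skin was the single call open to them. P2rx4 was detected in every library and lay higher in each skin library than in any SDLN library, but it did not pass the test. Entpd1, Adora2a and P2ry10 were above the SDLN range in at least 1 skin library and low or at 0 in another. Adk had reads in a single skin library, below the SDLN range, and none of these 4 passed. The sequences at the RefSeq start sites of the 3 genes that fell and of P2rx4 can be set side by side. Each sequence below runs 5′ to 3′ on the gene's own strand, from 250 bases before to 50 after the start that RefSeq gives on GRCm38.p6, and capitals mark matches to the searched letters.
Nt5e: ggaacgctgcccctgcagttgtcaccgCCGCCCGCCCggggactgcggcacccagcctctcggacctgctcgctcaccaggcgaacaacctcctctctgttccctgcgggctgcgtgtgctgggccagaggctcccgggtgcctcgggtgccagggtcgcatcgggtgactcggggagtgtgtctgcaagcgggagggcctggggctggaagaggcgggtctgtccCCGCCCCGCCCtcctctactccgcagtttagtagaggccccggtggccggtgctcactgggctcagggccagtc
P2rx7: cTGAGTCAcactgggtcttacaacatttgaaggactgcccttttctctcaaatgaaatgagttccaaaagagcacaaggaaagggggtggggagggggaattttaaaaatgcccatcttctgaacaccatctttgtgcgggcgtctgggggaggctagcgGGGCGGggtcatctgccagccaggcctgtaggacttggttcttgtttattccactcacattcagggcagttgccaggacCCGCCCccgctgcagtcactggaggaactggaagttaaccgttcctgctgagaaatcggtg
Ada: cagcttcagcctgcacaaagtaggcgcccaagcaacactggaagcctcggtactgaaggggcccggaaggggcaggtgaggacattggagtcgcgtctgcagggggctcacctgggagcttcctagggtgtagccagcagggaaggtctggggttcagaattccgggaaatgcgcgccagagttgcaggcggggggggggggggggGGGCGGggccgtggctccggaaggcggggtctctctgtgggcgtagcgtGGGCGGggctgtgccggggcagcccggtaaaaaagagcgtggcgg
P2rx4: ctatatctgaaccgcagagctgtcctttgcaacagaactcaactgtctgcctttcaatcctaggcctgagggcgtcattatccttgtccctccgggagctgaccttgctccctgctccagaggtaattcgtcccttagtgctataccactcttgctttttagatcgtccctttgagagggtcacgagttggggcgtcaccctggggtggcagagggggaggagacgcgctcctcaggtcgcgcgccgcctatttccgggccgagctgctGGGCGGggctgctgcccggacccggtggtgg

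These windows are chr9:88327359-88327658 on the plus strand for Nt5e, chr5:122643677-122643976 on the plus strand for P2rx7, chr2:163750190-163750489 on the minus strand for Ada and chr5:122707294-122707593 on the plus strand for P2rx4. The letters searched, on both strands, were TGACTCA (the AP-1 site), TGACGTCA (the cyclic AMP response element), GGGCGG (the GC box), TATAAA (the TATA box) and ACGTG (the core of the hypoxia response element). All 4 windows hold the GC box, which 35.7% of the 32851 RefSeq promoters of this length hold. Nt5e has 4 matches, of which neighbours share letters, P2rx7 and Ada have 2 each, and P2rx4 has 1. The Nt5e window lies within the GENCODE M21 span of the gene, which begins at chr9:88327197, so the annotations differ on its start. P2rx7 alone of the 4 holds an AP-1 match, found in 5.2% of all promoters. None of the 4 holds the cyclic AMP element (1.79% of all promoters), the TATA box (13.6%) or the hypoxia core (19.6%). The windows are 71% G or C for Nt5e, 68% for Ada, 60.3% for P2rx4 and 53.3% for P2rx7, against a median of 52.7% over all promoters. The sequence table held 11 entries for 7 of the 8 genes, P2rx7, Adk, Entpd1 and P2ry10 having 2 starts each. The second P2rx7 start, at chr5:122650133-122650432, holds neither a GC box nor an AP-1 match (51.7% G or C). Both Adk entries hold 4 GC boxes and the entries of Entpd1 and P2ry10 hold none. The GC box was thus present at starts of genes that fell, of P2rx4 and of Adk, but not at every start, and a match of letters is a description only.

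The skin libraries were far shallower than the SDLN libraries. They held 3748669, 11741784 and 9033442 counts in A, B and C, against 47243498 to 116158706 in SDLN. Levels are given as CPM, the count divided by the library's total and multiplied by 1000000, and genes at 1 CPM or more numbered 2911 to 5317 in skin and 12397 to 13002 in SDLN. A count of 0 in a skin library allows a level of up to 0.8, 0.255 or 0.332 CPM in A, B and C, taking 3 counts as the floor. Over that floor were 3, 5 and 4 of the 8 genes in skin A, B and C, and all 8 in each SDLN library. Marker lists of other cell types were summed in each library. The 18 macrophage and dendritic cell markers summed to 34109 to 57950 CPM in skin against 700.4 to 990.2 CPM in SDLN, and 15 of the 16 tested were higher in skin. Cd74, H2-Ab1 and H2-Aa were its highest markers in each skin library. Itgam, a defining marker of that list, was at 0 in all 3 skin libraries. Adgre1 had 1 count in skin C, and Cd14 and Fcgr1 had counts in skin B alone among the skin libraries. The 12 genes known to respond to tissue digestion summed to 8801 to 26608 CPM in skin against 1600 to 1737 in SDLN, with 8 higher in skin. B cell, keratinocyte, fibroblast and endothelial lists reached at most 90.62 CPM in a skin library, and the mast cell list 225.7 CPM in A. The gate was checked against its own genes. Foxp3 had 0, 330 and 1 counts in skin A, B and C, and Cd4 had 0, 1861 and 2, so the libraries labelled skin A and C had at most 2 counts of either defining transcript. The Treg list summed to 5784 to 9745 CPM in skin and to 7016 to 7614 in SDLN, and the T cell list to 3514 to 5707 and 9004 to 11265. Fewer cells of a type and less RNA per cell cannot be told apart in such libraries, and intervals and floors cover counting error only.

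The question put to the 8 genes was whether skin Tregs differ from SDLN Tregs in transcripts that make, sense or remove adenosine and ATP. Over all 13572 genes tested, 6142 (45.3%) were higher in SDLN and 141 (1.04%) were higher in skin at an adjusted p under 0.05 in edgeR's quasi-likelihood test. All 8 genes passed the filter on low counts, Nt5e, P2rx7 and Ada through their SDLN libraries alone. Of the 8, 3 were called lower in skin and 0 higher, and 3 of 8 is near the share of all genes called. With B as the only skin library, a fit added after seeing the data, 3 were higher in skin (Entpd1, P2rx4 and P2ry10, with 10.6% of all genes called) and 4 lower (Nt5e, P2rx7, Ada and Adk, with 46% called). That fit has no skin spread and takes B to vary like the SDLN libraries, which the skin libraries did not do, so its calls support nothing and its values are given below without p. By levels alone, 4 genes had every skin library below every SDLN library (53.6% of all genes tested did) and P2rx4 had every skin library above (2.39% of all genes tested did). The median difference in mean log2(CPM + 1), skin minus SDLN, was -3.23 over the 8 genes and -2.31 over all genes tested.

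**Figure D1:**
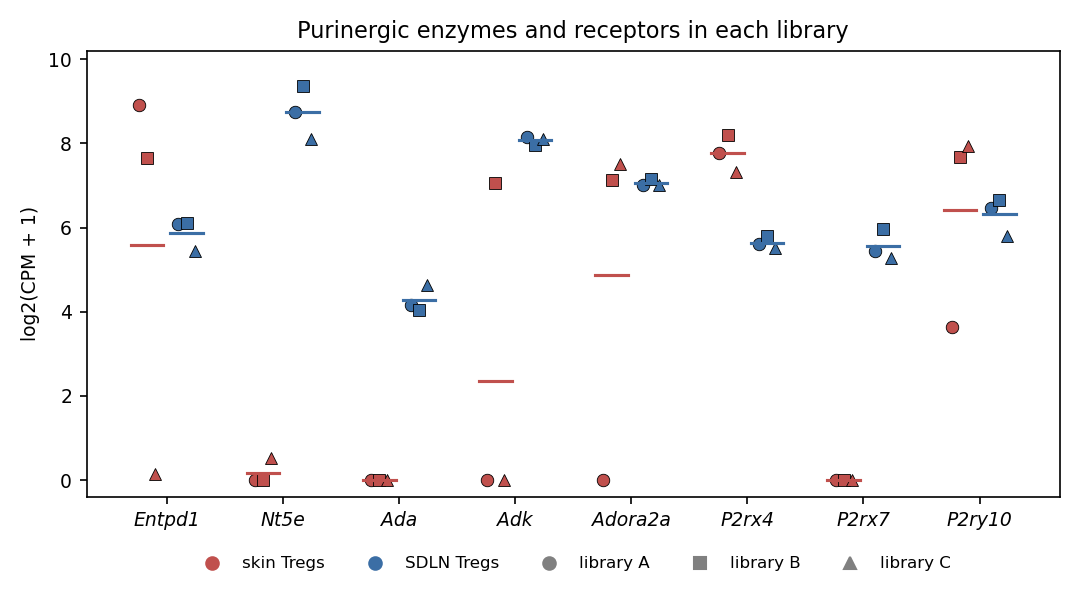
Level of each of the 8 genes in each library, as log2(CPM + 1), with skin Tregs in red and SDLN Tregs in blue, libraries A, B and C as circles, squares and triangles, and lines at the group means of the plotted values. P2rx4 is the gene with all 3 skin points above all SDLN points, Nt5e, Ada and P2rx7 lie at or near 0 in skin, and the skin points of the other genes are spread from low or near 0 upward.

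Among the ectoenzymes, Entpd1 and Nt5e, which act in sequence, differed in how they were distributed over the skin libraries. Entpd1 (ENSMUSG00000048120, GRCm38 chr19:40612366-40741602, plus strand) had 1801, 2357 and 1 counts in skin A, B and C, while the SDLN libraries, in the same order, held 7714, 4950 and 1994. As levels these are 480.4, 200.7 and 0.1107 CPM in skin and 66.41, 68 and 42.21 CPM in SDLN. Skin A and B were thus above every SDLN library and skin C was below all of them, at a single count. Mean CPM was 227.1 ± 241.2 for skin and 58.87 ± 14.45 for SDLN (SD, n = 3 each). The fitted log2 difference of 1.64 (SE 2.00, adjusted p = 0.69) did not exceed the spread between libraries. It passed under none of the 12 alternative settings (adjusted p from 0.0716 to 0.92), and in limma voom with sample weights its sign turned, to -3.28. Without skin A the log2 difference was 0.70, and with B as the only skin library 1.83. Macrophages are also known to express Entpd1. Of the 18 macrophage and dendritic cell markers, 14 had every skin library above every SDLN library. In skin C, Cd74, H2-Aa and H2-Ab1 were at 18403, 3166 and 7324 CPM, while Adgre1 had 1 count and Itgam, Cd14 and Fcgr1 had 0. The part of macrophages in the level of Entpd1 was not tested.

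The 3 genes with the pattern most like that of Entpd1 over the 6 libraries, by Pearson's r of log2(CPM + 1) among the 8267 genes whose mean reached 10 CPM, were Gpr183 (r = 0.9992), Ubxn6 (r = 0.999) and Narf (r = 0.9983). Gpr183 encodes a receptor for oxysterols that guides immune cells, and it had 1310, 1590 and 0 counts in skin A, B and C. Each of the 3 shared with Entpd1 high counts in skin A and B and at most 3 in skin C. The points share the libraries and their depth, so r is a description.

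Nt5e (ENSMUSG00000032420, chr9:88327197-88372092, plus strand) had 49655, 47594 and 13035 counts in SDLN A, B and C. In skin it had 0, 0 and 4. Its SDLN levels were 427.5, 653.8 and 275.9 CPM, and the single skin library with reads, C, was at 0.4428 CPM. Mean CPM was 452.4 ± 190.2 for SDLN and 0.1476 ± 0.2557 for skin (SD, n = 3 each), and the groups did not overlap. The fitted log2 difference, skin over SDLN, was -11.21 (SE 2.30, adjusted p = 0.00955 in edgeR's quasi-likelihood test and 1.42e-14 to 0.037 over the 12 alternatives). The filter was passed through SDLN alone, so the direction was fixed before the test and these p-values are no sign of stability. Without skin C, the one skin library with reads, the fitted value was -17.49, which sets SDLN against counts of 0 and depends on the prior count. Per kb of exon Nt5e stood above Entpd1 in each SDLN library, Entpd1 being at 0.239, 0.16 and 0.236 of the Nt5e level in A, B and C.

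The near absence of Nt5e reads in skin can be set against genes of like CPM. In SDLN Tregs 485 genes had a mean of 300 to 1000 CPM, the range that holds Nt5e, and 70.5%, 96.5% and 94% of them had more than 3 counts in skin A, B and C. At most 3 counts in every skin library were seen for 5 of the 485 genes (1.03%), which leaves out Nt5e with its 4. A limit of 4, set from the Nt5e value itself, takes in 7 genes (1.44%), and they include Nt5e and, named after their values were seen, Arpc5l, Lef1, Gimap4, Stat6 and Izumo1r. Lef1 encodes a transcription factor of resting T cells, and Izumo1r encodes a folate receptor family protein typical of Tregs. Lower down, a lack of counts was common. Of the 3649 genes at 30 to 100 CPM in SDLN, the range of P2rx7, 28.7% were at or under 3 counts in all skin libraries, and of the 2680 genes at 10 to 30 CPM, the range of Ada, 56.5% were.

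**Figure D2:**
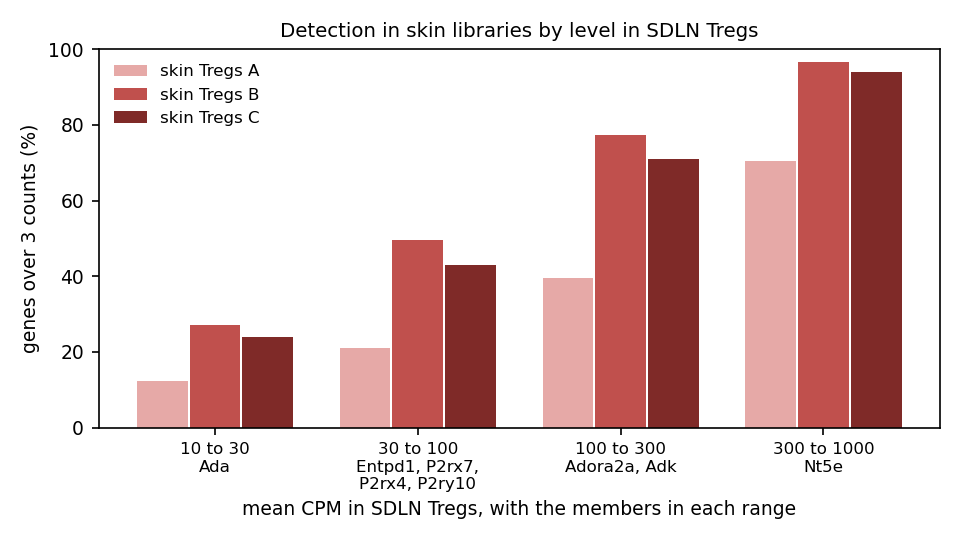
Percentage of genes with more than 3 counts in each skin library, for genes grouped by mean CPM in SDLN Tregs, with the genes described here named under their range. Detection rises from 12.4 to 27.2% of genes at 10 to 30 CPM to 70.5 to 96.5% at 300 to 1000 CPM, the range of Nt5e.

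Genes most like Nt5e by the same measure were Mfsd10, Nrm and Smarcc2, each at r = 0.9999 over the 6 libraries. Smarcc2 encodes a subunit of a chromatin remodelling complex and Nrm a protein of the nuclear envelope. All 3 had 0 counts in skin A and B and 2 or 3 in skin C, so the likeness rests on the near absence of reads in skin together with the order B, A, C of the SDLN libraries.

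The intracellular enzymes that remove adenosine both had every skin library below every SDLN library. Ada (ENSMUSG00000017697, chr2:163726584-163750239, minus strand) had 1973, 1134 and 1130 counts in SDLN A, B and C, or 16.99, 15.58 and 23.92 CPM, and 0 in each skin library. The SDLN mean was 18.83 ± 4.465 CPM (SD, n = 3). Against the mean of the skin floors, 0.463 CPM, Ada was at least 40.7-fold lower in skin, with an adjusted p of 0.00322 in the edgeR test. Over the 11 alternatives that tested it the adjusted p was 2.69e-12 to 0.0166, with the direction fixed by the filter as for Nt5e. With all libraries drawn down to the smallest total, Ada had too few counts to be tested.

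Adk (ENSMUSG00000039197, chr14:21052574-21448569, plus strand) was even across the SDLN libraries, at 283.6, 249.9 and 275.6 CPM from 32937, 18194 and 13019 counts. In skin it had 0, 1557 and 0 counts in A, B and C, so that skin B stood at 132.6 CPM and the others at 0. Mean CPM was 44.2 ± 76.56 for skin and 269.7 ± 17.57 for SDLN (SD, n = 3 each), without overlap, but the fitted log2 difference of -2.56 (SE 2.88, adjusted p = 0.655) did not exceed its error. Without skin B the log2 difference was -16.73, with an adjusted p of 0.00492, in a fit that called 48.9% of genes lower and 1.21% higher in skin. With sample weights it was -9.42 (0.00921, 53% called), and with B as the only skin library -0.98. The fit without skin B sets SDLN against counts of 0, so its size is no bound, and the size of the Adk difference depended on skin B. Adk exceeded Ada per kb of exon in SDLN by 3.92, 3.77 and 2.71 times in A, B and C.

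Adora2a, the adenosine receptor gene, was within or above its SDLN range in the skin libraries that had reads. Its locus is ENSMUSG00000020178 at chr10:75316877-75334784 on the plus strand. Skin A, B and C held 0, 1627 and 1637 counts, and SDLN A, B and C held 14923, 10209 and 6022. The CPM values were 138.6 and 181.2 in skin B and C, against 128.5, 140.2 and 127.5 in SDLN. Skin A, the shallowest library, had none, where 39.4% of the genes at 100 to 300 CPM in SDLN had more than 3 counts. Mean CPM was 106.6 ± 94.74 for skin and 132.1 ± 7.099 for SDLN (SD, n = 3 each), a log2 difference of -0.09 (SE 2.11, adjusted p = 0.991). Without skin A the difference turned to 0.29 (0.704), and with B as the only skin library to 0.12. It was -0.99 without skin C and -2.82 in limma voom with sample weights. These errors leave room for a large difference in either direction.

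The ATP-gated channels P2rx7 and P2rx4 are neighbours on chromosome 5, both on the plus strand and 16.1 kb apart, and their skin levels lay on opposite sides of the SDLN levels. P2rx7 (ENSMUSG00000029468, chr5:122643911-122691432) had 4929, 4470 and 1788 counts in SDLN A, B and C and 0 in each skin library. The SDLN levels were 42.43, 61.4 and 37.85 CPM, with a mean of 47.23 ± 12.49 (SD, n = 3). Against the mean skin floor P2rx7 was at least 102-fold lower in skin, and its adjusted p was 0.00514 (3.96e-14 to 0.0268 over the 12 alternatives), again with the direction fixed by the filter. A microRNA gene, Mir8115, shares 119 bases of its exons and was at 0 in all 6 libraries.

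P2rx4 (ENSMUSG00000029470, chr5:122707544-122729738) had 813, 3465 and 1439 counts in skin A, B and C, and 5525, 3990 and 2099 in the SDLN libraries in that order. Its levels were 216.9, 295.1 and 159.3 CPM in skin and 47.56, 54.81 and 44.43 CPM in SDLN. P2rx4 and P2ry10 were the genes of the 8 with more than 3 counts in all 6 libraries, and for P2rx4 the lowest skin library was above the highest SDLN library. Mean CPM was 223.8 ± 68.16 for skin and 48.93 ± 5.323 for SDLN (SD, n = 3 each), a ratio of 4.573. The fitted log2 difference of 2.17 (SE 0.89) had a p of 0.0522 before and 0.108 after adjustment in edgeR's quasi-likelihood test, and so missed the threshold. It passed under 3 of the 12 alternatives, namely DESeq2 (2.21, adjusted p = 4.72e-08, where 2.34% of genes were called higher in skin), limma voom with sample weights (2.11, 0.0224, with 0.936% called) and the fit without skin A (2.20, 0.0327, with 2.04% called). Over all 12 the adjusted p ran from 4.72e-08 to 0.455, and with B as the only skin library the log2 difference was 2.65. Macrophages are known to express P2rx4, and their marker list was high in the same 3 libraries (14 of its 18 markers had every skin library above every SDLN library). Its part in the P2rx4 values was not tested. In SDLN Tregs the channels were close per kb of exon, P2rx4 being at 0.953, 0.759 and 0.998 of the P2rx7 level in A, B and C. The difference between the changes of both genes was not tested.

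P2ry10 (ENSMUSG00000050921, chrX:107088492-107104974, plus strand) had 43, 2390 and 2188 counts in skin A, B and C. The SDLN libraries had 10164, 7304 and 2593. Skin A was at 11.47 CPM, below the SDLN range of 54.89 to 100.3 CPM, and skin B and C were above it at 203.5 and 242.2 CPM. Mean CPM of 152.4 ± 123.6 for skin and 80.91 ± 23.43 for SDLN (SD, n = 3 each) gave a difference within this spread (log2 1.13, SE 1.37, adjusted p = 0.688). None of the 12 alternatives called the gene (0.0918 to 0.96). The log2 difference was 0.32 without skin C and 1.40 with B as the only skin library. Its paralog P2ry10b, named after its values were seen, lies 44 kb away. It had 11.16, 19.35 and 7.303 CPM in SDLN and 0 counts in all skin libraries (adjusted p = 0.00344 in the edgeR test). P2ry10b passed the filter through SDLN alone, so lower in skin was the single call open to it. Of the genes at 10 to 30 CPM in SDLN, its range, 56.5% were at or under 3 counts in all skin libraries. Per kb of exon P2ry10 exceeded P2ry10b by 9.11, 6.02 and 8.73 times in SDLN A, B and C. Reads that fit both copies could be split or dropped by the counting, so this ratio is uncertain.

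Levels of the 8 genes were compared with one another as CPM per kb of exon, which corrects for the longer genes catching more reads. In SDLN Tregs the order was Nt5e (52.59 ± 22.11), Adora2a (43.13 ± 2.319), Adk (31.63 ± 2.061), P2ry10 (27.13 ± 7.857), Entpd1 (10.55 ± 2.59), Ada (9.404 ± 2.23), P2rx7 (7.911 ± 2.092) and P2rx4 (6.966 ± 0.7578), each as mean and SD over 3 libraries. Libraries of neighbours in that order overlapped except between Adora2a and Adk and between P2ry10 and Entpd1. The lower 4 genes therefore form a run in which no neighbour stood apart. In skin the means were 51.11 ± 41.44 for P2ry10, 40.7 ± 43.23 for Entpd1, 34.81 ± 30.94 for Adora2a and 31.85 ± 9.703 for P2rx4. Of these, P2rx4 alone had a spread well under its mean, and each of its skin libraries was above each of Adk (5.184 ± 8.979). P2rx4, last in SDLN, was among the highest 4 in skin, and Nt5e, first in SDLN, was at 0.01716 ± 0.02972.

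**Figure D3:**
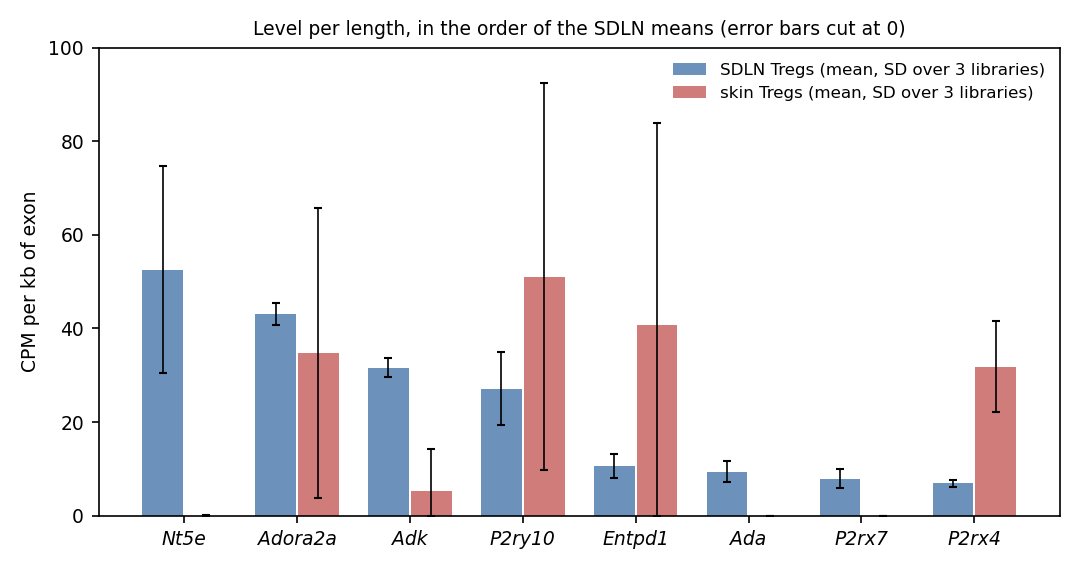
Mean level in CPM per kb of exon for SDLN Tregs (blue) and skin Tregs (red), with bars from 0 and error bars of 1 SD over 3 libraries, in the order of the SDLN means. Nt5e is first in SDLN at 52.59 and near 0 in skin, while P2rx4 is last in SDLN at 6.966 and at 31.85 in skin.

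The wider pathway was described from a list of 59 further genes of purine signaling and metabolism, of which 58 had a row and 33 passed the filter. Of these 33, 18 were called lower in skin and 0 higher, against 45.3% and 1.04% of all genes tested, and the median difference in mean log2(CPM + 1) was -3.29. In 17 of the 18, every skin library was at 3 counts or fewer, which was also true of 5801 of all 6142 genes called in that direction. Those 17 entered the test through SDLN alone and could be called in no other direction, so their adjusted p-values below describe each gene and do not support a direction of the list. Calls came from 5 of 6 ectoenzymes tested, 3 of 3 P2Y receptors, 2 of 5 nucleoside transporters, 6 of 14 intracellular purine enzymes, 1 of 3 nucleotidases of the Golgi, endoplasmic reticulum or lysosome, and Adora2b, the 1 other adenosine receptor tested. None of the 5 other P2X genes passed the filter on low counts.

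Among the ectoenzymes, Dpp4 (CD26, a cell-surface peptidase) was at 94.36 ± 30.32 CPM in SDLN and had 0, 1 and 1 counts in skin A, B and C. Its fitted log2 difference was -10.15 (adjusted p = 0.00696 in the edgeR test). Cd38, which breaks down NAD, was at 48.22 ± 13.39 CPM in SDLN and at 0 in skin, at least 104-fold lower (adjusted p = 0.00534). Enpp1, which cleaves ATP to AMP and pyrophosphate and so offers a route around CD39, was at 23.02 ± 2.046 CPM in SDLN and at 0 in skin, at least 49.8-fold lower (0.00322). These 3 had counts in every SDLN library and next to none in skin, as Nt5e did, whereas the ectoenzyme gene Bst1, named after its values were seen, had counts in skin B and C and was not called. Entpd5, a nucleotidase of the endoplasmic reticulum, was at 65.37 ± 7.023 CPM in SDLN with 0, 4 and 0 counts in skin (log2 fold change -8.95, adjusted p = 0.0173). It lost the call without any 1 of the SDLN libraries (0.052 to 0.0532), and without skin B, which held the 4 counts, the fitted value was -14.67.

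Intracellular enzymes of the AMP pool held both genes without counts in skin and genes counted in every library. Ampd2 and Ampd3, which deaminate AMP to IMP, were at 64.2 ± 21.31 and 18.17 ± 9.971 CPM in SDLN and at 0 in skin, at least 139-fold and 39.3-fold lower (adjusted p = 0.00829 and 0.00403). Ahcy, which releases adenosine from S-adenosylhomocysteine, was at 38.8 ± 1.793 CPM in SDLN with 1, 0 and 0 counts in skin (0.00717), and Nt5c2, a cytosolic nucleotidase, at 33.7 ± 2.736 CPM with 0, 0 and 1 (0.00479). By contrast Nt5c and Nt5c3b had over 3 counts in all 6 libraries. Nt5c, another nucleotidase, had mean CPM of 265.1 ± 61.92 for skin and 259.4 ± 106.4 for SDLN (log2 difference 0.06, SE 0.71, adjusted p = 0.982). Nt5c3b was at 313.6 ± 295.8 and 173.6 ± 22.83 CPM (0.57, SE 0.76, 0.723). Neither passed, and the signs of both turned under other settings.

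**Figure D4:**
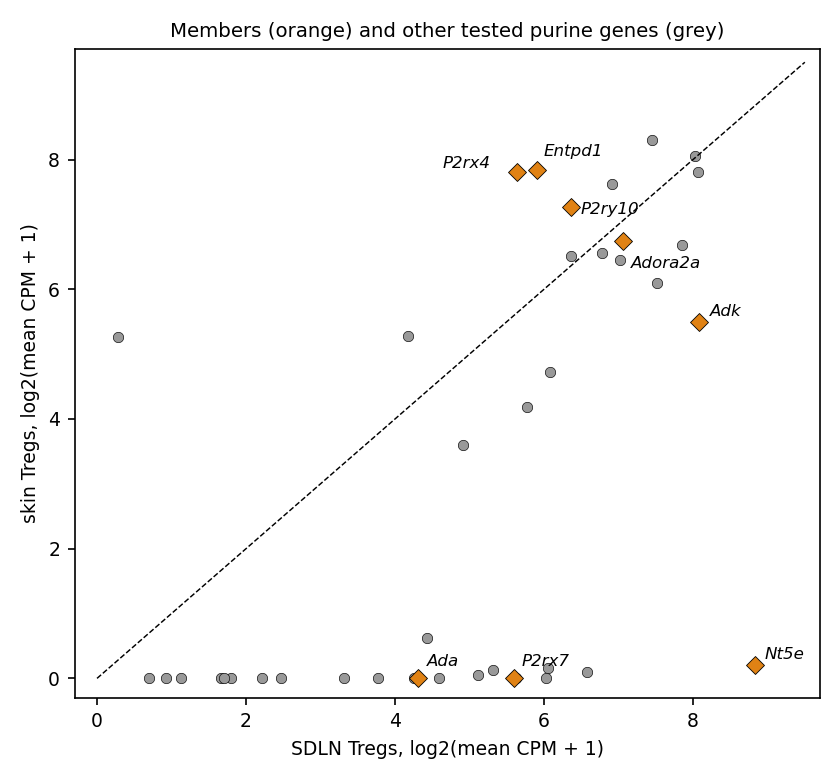
Mean level in skin Tregs against mean level in SDLN Tregs, both as log2(mean CPM + 1), for the 8 genes (orange diamonds) and the 33 further purine genes tested (grey), with the line of equal level dashed. P2rx4, Entpd1 and P2ry10 lie above the line, and Nt5e, P2rx7 and Ada lie along the lower edge with the genes that had no skin counts.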

How the data were processed

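Bulk RNA-seq of 3 skin Treg and 3 SDLN Treg libraries was analysed. Per the submitters' processing notes and methods, reads were trimmed with Trimmomatic 0.36, mapped to GRCm38 with STAR 2.5.2b and counted with featureCounts of Subread 1.5.2. The raw counts per Ensembl gene were used as deposited by the authors, without normalization. The annotation release, strand setting and treatment of duplicate reads are not given in the sources used here, and no molecular identifiers were described. Symbols, positions and exon lengths came from GENCODE M21, which named 48970 of the 49315 genes. No pair of libraries held identical values.

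Counts were filtered with filterByExpr, scaled by TMM and fitted with edgeR 4.0.16 (robust quasi-likelihood test, R 4.3.3), with Benjamini-Hochberg adjustment over all 13572 genes. SE is the log2 fold change divided by the root of F. The biological coefficient of variation was 1.427. A pseudocount of 1 CPM was used on the log2 scale. The test was first tried on simulated counts. Alternatives were DESeq2 size factors, library size only, DESeq2 1.42.0, limma 3.58.1 voom with sample weights, no filter, counts drawn down to the smallest total, leaving out each library and, added after seeing the data, keeping B as the only skin library and the column letter as a block.

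The 8 genes and the lists were chosen with earlier results of these data known. Text names the 8 genes and the 3 most like Entpd1 and Nt5e. From the wider list it names all genes called higher in skin and all over 3 counts in every library. It also names the 8 called higher in SDLN with the highest mean SDLN CPM, without correction for length. Some genes that this rule or a count includes are not reported here.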

Additional observations from a re-analysis of the deposited data

How the results depend on the processing

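For the 8 genes, 88 of 95 values under the alternatives listed in the methods, other than both added ones, kept their direction and their side of the threshold, 5 newly passed it and 2 reversed. For the named genes of the wider list, 122 of 132 kept both, 3 no longer passed and 7 reversed. Reversed log2 fold changes were -3.28 for Entpd1 with voom and sample weights, 0.29 for Adora2a without skin A (-0.99 to 0.29 over the fits without 1 library), -0.01 and -0.20 for Nt5c without the filter and drawn down (-0.32 to 0.35 without 1 library) and -0.28 for Nt5c3b without skin A (-0.28 to 0.78). Of the 8 genes, the number called higher in skin rose from 0 to 1 with DESeq2 and with voom (0 to 1 without 1 library), in each case P2rx4, and 3 to 4 were called higher in SDLN without 1 library. In the wider list 1 gene, Bst1, was called higher in skin with DESeq2 and without skin A (0 to 1), and 11 in place of 18 higher in SDLN when drawn down (13 to 22 without 1 library), where 24 could be tested. Over all genes, 382 were higher in skin with DESeq2, 77 without the filter and 86 drawn down (71 to 324 without 1 library, the highest without skin A), and 3176 of 9580 were higher in SDLN drawn down (4983 to 7787). For these changes the cause was not tested. Genes over 3 counts in every library had a median log2 fold change of 0.279, and of 0.0239 to 0.377 under the other settings that kept all libraries. With B as the only skin library, added after seeing the data, 3 of the 8 genes, 2 wider genes (Bst1 and Adora3) and 1951 of 18473 genes were higher in skin, 4, 27 and 8491 were higher in SDLN, and Adora2a reversed to 0.12. This fit takes B to vary like the SDLN libraries, which the skin libraries did not do. No label ties the letters of the count columns to replicate numbers or to animals, so the letters were not taken as pairs. Deviations from the group means in same-letter skin and SDLN libraries had correlations of -0.01 to 0.09 over 13572 genes. Skin libraries differed widely in which genes had reads, so these correlations cannot settle whether same-letter libraries shared animals. With the letter as a replicate block, also added after seeing the data, 0 of the 8 genes and 61 of all genes were higher in skin, and 3, 16 and 5633 of the 8, the wider list and all genes higher in SDLN. Of the named genes, Dpp4 (adjusted p = 0.0874) and Entpd5 (0.0755) were not called with the block. Ada could not be tested at the smallest library's depth.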

Other observations

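Of the 33 wider pathway genes tested, 10 had more than 3 counts in exactly 1 skin library, 3 in 2 and 3 in all 3. The genes that follow were picked after their values were seen. Slc28a2, a concentrative transporter of purine nucleosides, had 2207, 0 and 1 counts in skin A, B and C (588.7 CPM in A) and 103.6 to 142 CPM in SDLN. Slc29a1, an equilibrative nucleoside transporter, had 0, 2 and 2748 (304.2 CPM in C) and 195.7 to 292.6 CPM in SDLN. Each transporter thus had more than 3 counts in a single skin library, a different one for each, and Adk had them in B.

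Among the 33 wider pathway genes tested, Bst1 (CD157, a relative of CD38) had the largest ratio of mean CPM toward skin. It was at 0, 56.98 and 55.57 CPM in skin A, B and C and 0.08242 to 0.4657 CPM in SDLN. Its log2 fold change was 7.59 (SE 2.72) with an adjusted p of 0.0711 in the edgeR test, and over 11 alternatives the adjusted p ran from 0.000248 to 0.247, passing with DESeq2 and without skin A. Adora3, an adenosine receptor known from mast cells and macrophages, had 716 counts in skin B, 0 in skin A and C, and at most 0.4396 CPM in SDLN. It did not pass the filter of the main test, and in the 4 alternatives that tested it the adjusted p ran from 0.098 to 0.237. Panx1, a channel that releases ATP, had 0, 1315 and 1435 counts in skin A, B and C, the same libraries that held Adora2a (log2 fold change 0.36, adjusted p = 0.962).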
